A study of Mus musculus with 9 samples.

Results

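The matrix metalloproteinases (Mmp), the ADAMTS proteases (Adamts), the ADAMTS-like proteins (Adamtsl) and the tissue inhibitors of metalloproteinases (Timp) were taken from the gene expression table of mouse tibia by their gene symbols. The table held 48 such genes among 18272, namely 20 Mmp, 19 Adamts, 5 Adamtsl and 4 Timp genes. Of these, 40 were tested, since 3 or more of the 9 libraries held 10 or more counts of each, and 8 were not. One library was made from the tibia of 1 mouse, with 3 mice in each of 3 groups, all of them female C57BL/6J mice bought at an age of 10 to 11 weeks. The NGT group (normal glucose tolerance) received the citrate vehicle in place of streptozotocin, and its label gives saline as the treatment. The T1D group (type 1 diabetes) received streptozotocin (STZ), which destroys the insulin-producing beta cells, and saline. The Lira group received STZ and then daily liraglutide (0.6 mg/kg/day), which activates the receptor of glucagon-like peptide-1. All of the diabetic mice carried STZ-induced rather than autoimmune diabetes. Treatment lasted 8 weeks, except that the label of Lira mouse 3 gives 9 weeks. The comparison of T1D with NGT asks what diabetes changed in bone, and that of Lira with T1D what liraglutide changed in diabetic bone.

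Matrix metalloproteinases are zinc enzymes that are made as inactive proenzymes and cut collagens, proteoglycans and other matrix proteins. TIMPs bind the active enzymes and block them, and the ADAMTS proteases cut proteoglycans and trim procollagens. In bone, MMP13 is the collagenase of osteoblasts and growth plate chondrocytes, MMP9 is made by osteoclasts and by neutrophils, MMP14 sits in cell membranes and activates MMP2, and MMP8 is stored in the granules of neutrophils, which the marrow of the tibia forms.

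In the order of genes on mouse chromosome 9, Mmp13, Mmp12, Mmp1b, Mmp3, Mmp1a, Mmp10, Mmp8, Mmp27, Mmp20 and Mmp7 follow each other with no other protein-coding gene between them, and Mmp1a, Mmp1b and Mmp20 had no row in the table. The 150 bases before the RefSeq start sites (build GRCm38.p6, plus strand, 5′ to 3′) of Mmp13, Mmp3 and Mmp8 are shown because these neighbours gave unlike values across the same mice. Capitals mark the AP-1 letters TGANTCA and the RUNX letters TGTGGTT, read on both strands.
Mmp13, chr9:7272364-7272513: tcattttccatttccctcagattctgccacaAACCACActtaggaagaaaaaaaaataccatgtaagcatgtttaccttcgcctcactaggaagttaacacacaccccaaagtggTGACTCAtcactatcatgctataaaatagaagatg
Mmp3, chr9:7445672-7445821: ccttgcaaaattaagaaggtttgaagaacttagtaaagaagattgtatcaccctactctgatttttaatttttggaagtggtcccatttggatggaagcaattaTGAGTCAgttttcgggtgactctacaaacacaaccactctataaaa
Mmp8, chr9:7558279-7558428: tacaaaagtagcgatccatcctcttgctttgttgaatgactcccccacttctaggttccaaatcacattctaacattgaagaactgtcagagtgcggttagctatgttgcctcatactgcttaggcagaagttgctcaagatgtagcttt
The AP-1 letters began 35 bases before the start of Mmp13 and 46 bases before that of Mmp3. The RUNX letters began 119 bases before the start of Mmp13, on the minus strand. The Mmp8 window held neither run of letters. Promoter windows were at hand for 33 of the 48 genes, and the AP-1 letters stood within 150 bases of a start in 5 of them, Mmp3, Mmp7, Mmp10, Mmp12 and Mmp13, all on chromosome 9, against 4.24% of all 32851 windows. The RUNX letters were found for Mmp7, Mmp13 and Mmp27, against 2.61% of all windows. A match of letters describes the sequence and does not show that a factor binds there.

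Library totals ran from 13086373 to 16528394 counts. The libraries of T1D mouse 1, NGT mouse 2 and Lira mouse 3 stood apart. In T1D mouse 1 the 10 macrophage markers summed to 981 CPM (counts scaled by TMM-adjusted library totals), against 42.5 to 138 CPM in the other libraries, and the fibroblast and tendon markers to 3392 CPM. In NGT mouse 2 the 14 neutrophil markers summed to 9.20 CPM, and 7 of them had 3 counts or fewer, as had 4 of 12 osteoblast and 7 of 9 B cell markers. Lira mouse 3 had the highest neutrophil sum, 5918 CPM. Bone markers were present (osteoblast sums of 651 to 7457 CPM), yet 15 skeletal muscle genes took 102116 to 281910.4 CPM in each tibia. In whole tissue, fewer cells of a type and less RNA per cell cannot be told apart.

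Compared per length by FPKM (fragments scaled for transcript length and library total), Timp2, Timp3 and Mmp2 had the highest means of the families. Mean FPKM over the 9 libraries was 57.3 for Timp2, 41.7 for Timp3, 25.9 for Mmp2, 22.0 for Adamtsl5 and 21.6 for Timp4. Mmp2 was 101 FPKM in T1D mouse 1 and 9.91 to 32.8 FPKM elsewhere, so its place above Adamtsl5 and Timp4 rested on that library. Mmp13 (20.4), Mmp9 (18.3) and Mmp8 (14.5) came next among the proteases, followed by Mmp14 (11.8), whereas the most abundant ADAMTS protease, Adamts1, had a mean of 4.47 FPKM. The Mmp with the highest FPKM differed between mice: Mmp2 led in 6 libraries, Mmp13 in T1D mouse 3 and Lira mouse 1, and Mmp8 in Lira mouse 3. Together Mmp8, Mmp9, Mmp13 and Mmp14 made up from 13.3% of the summed Mmp FPKM in NGT mouse 2 to 78.9% in Lira mouse 3.

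The summed FPKM of the 4 TIMPs per summed FPKM of the Mmp genes was 1.29, 3.29 and 2.02 in the NGT mice. It was 0.700, 1.93 and 0.986 in the T1D mice and 1.55, 2.46 and 0.637 in the Lira mice. The groups overlapped. The mouse with the lowest ratio and that with the highest were also those with the highest and the lowest neutrophil sums, and T1D mouse 1 had the second lowest ratio with the highest summed Mmp FPKM (372). Within a library this ratio compares transcripts, not active enzyme with inhibitor.

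The untested genes were Adamts16, Adamts17, Adamts18, Adamts19, Mmp7, Mmp10, Mmp21 and Mmp27. Adamts16 reached 27 counts in T1D mouse 1, and its other 8 libraries stayed under 10 counts. The highest count was 9 for Adamts17, 8 for Adamts18, 4 for Adamts19, 7 for Mmp27, 3 for Mmp21 and 1 each for Mmp7 and Mmp10. The matrilysin Mmp7 and the stromelysin Mmp10 were therefore not measurable at this depth, where 3 counts correspond to 0.163 to 0.237 CPM.

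The tested genes varied more between mice than most of the transcriptome. The median coefficient of variation over the 9 libraries was 46.4% for the 40 genes and 24.8% for all 13960 tested genes, not matched for expression level. It exceeded 100% for 7 of the 40 genes, against 6.59% of all tested genes. T1D mouse 1 held the highest value of 16 of the 40 genes (40%), against 20.7% of all tested genes, and for 9 of the 40 its value was more than 2 times that of any other library, against 3.41% of all. NGT mouse 2 and Lira mouse 1 held the lowest value of 11 genes each. By contrast Mmp24, a membrane-type enzyme, varied by 14.6%, Timp3 by 16.7%, Adamtsl4 by 17.8% and Adamts5 by 20.2%.

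**Figure D1:**
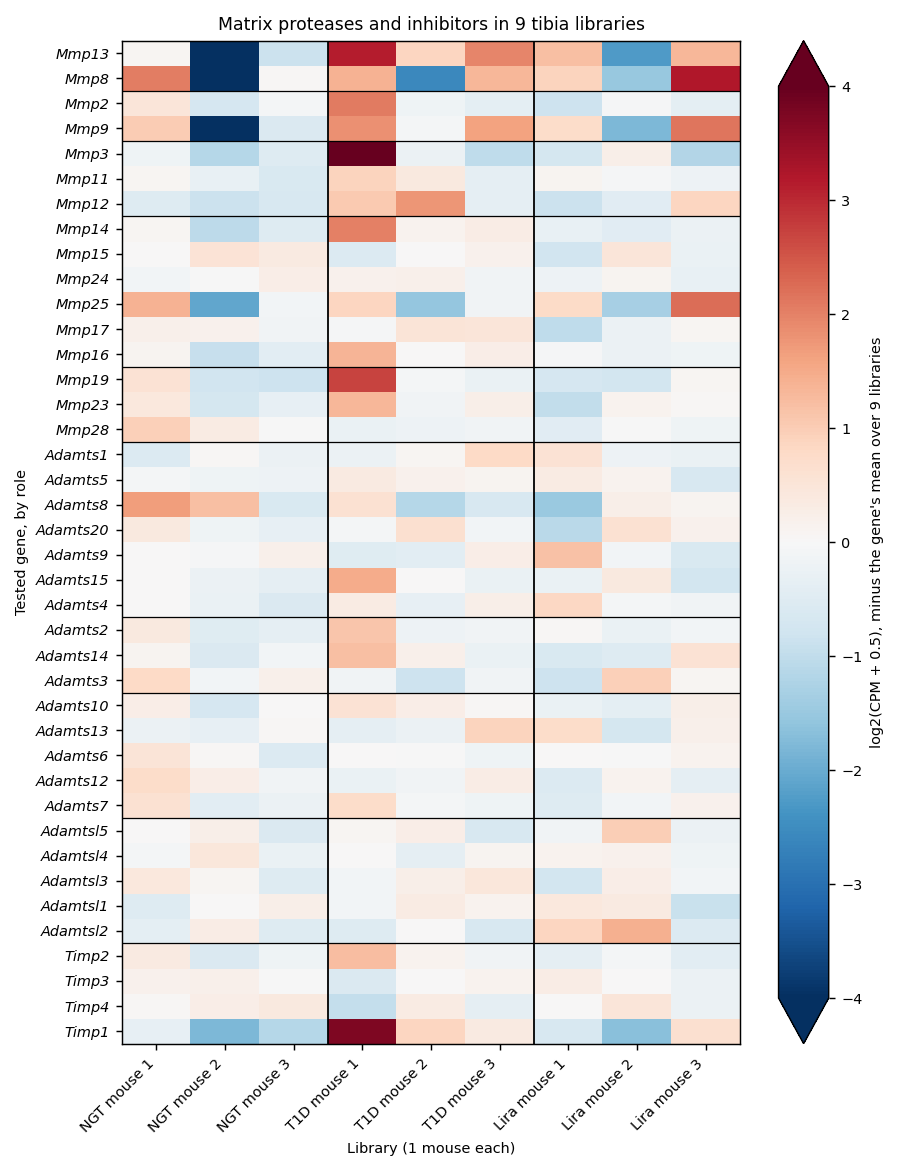
Each row is 1 of the 40 tested genes, grouped by role, and each column 1 library; color gives log2(CPM + 0.5) minus the mean of the gene over 9 libraries. T1D mouse 1 is the highest library for 16 genes, and Mmp8, Mmp9, Mmp13 and Mmp25 are lowest in NGT mouse 2.

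Among the collagenases, which cut fibrillar collagen, Mmp8 stood at 55.1, 0 and 13.5 CPM in NGT mice 1 to 3, at 35.0, 1.77 and 33.5 CPM in T1D mice 1 to 3 and at 25.0, 4.21 and 125 CPM in Lira mice 1 to 3. No group was set apart: each held a mouse under 5 CPM, and in every group this was mouse 2. The 0 of NGT mouse 2 allows up to 0.232 CPM. Mmp13, by the same order of mice, stood at 22.1, 0 and 11.3 CPM in the NGT mice, 188, 38.7 and 82.8 CPM in the T1D mice and 49.6, 3.97 and 54.2 CPM in the Lira mice. Every T1D mouse lay above every NGT mouse, and Lira mice 1 and 3 lay among the T1D mice while Lira mouse 2 lay among the NGT mice.

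Mmp9, the gelatinase B of osteoclasts and neutrophils, was measured at 59.8, 0.541 and 19.6 CPM in the NGT mice, 105, 27.4 and 90.0 CPM in the T1D mice and 48.6, 8.10 and 130.1 CPM in the Lira mice. NGT mouse 1 lay above T1D mouse 2, so that the groups overlapped, and the highest value was in Lira mouse 3. Mmp14, the membrane-type enzyme that activates MMP2, was measured at 36.0, 16.01 and 23.7 CPM in the NGT mice, 139, 37.6 and 41.9 CPM in the T1D mice and 27.4, 24.9 and 28.9 CPM in the Lira mice. In CPM its T1D values lay above all NGT and all Lira values, by a wide margin in T1D mouse 1 and by little in T1D mice 2 and 3. The lowest T1D value was 37.6 CPM and the highest NGT value 36.0 CPM. On deposited FPKM, NGT mouse 1 (11.3) lay above T1D mice 2 and 3 (9.75 and 9.91).

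**Figure D2:**
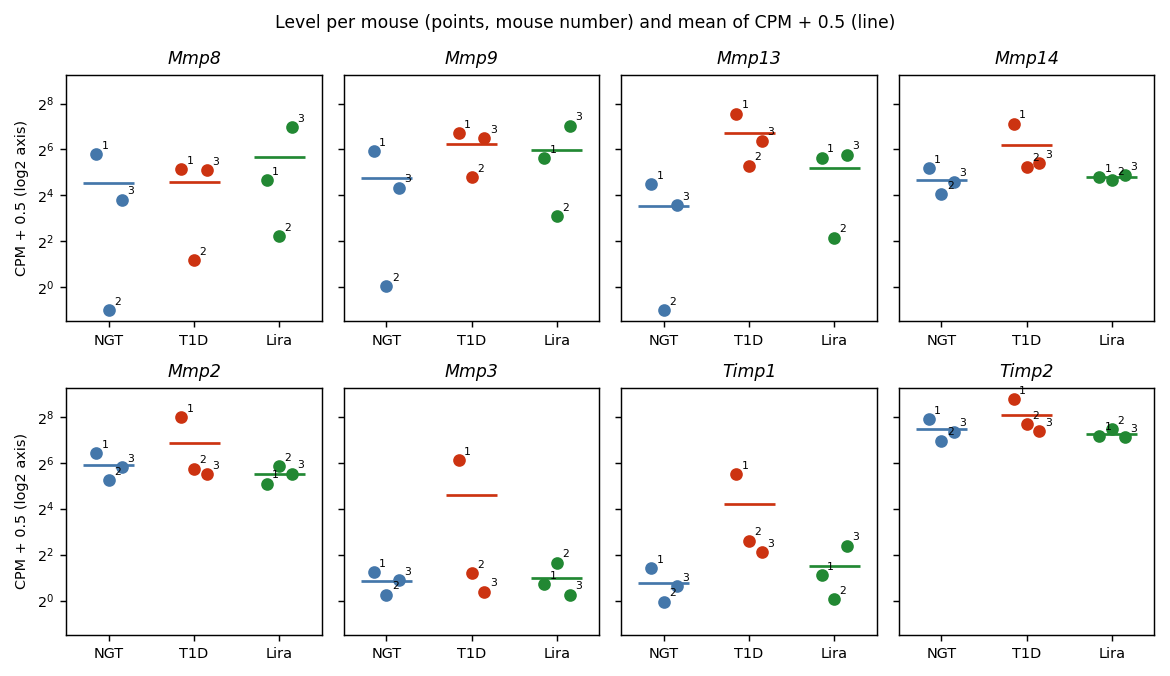
Points are CPM + 0.5 of single mice on a log2 axis, numbered by mouse and colored by group, and lines are group means for Mmp8, Mmp9, Mmp13, Mmp14, Mmp2, Mmp3, Timp1 and Timp2. All T1D points lie above all NGT points for Mmp13, Mmp14 and Timp1, whereas for Mmp3 only T1D mouse 1 (69.1 CPM) is set apart.

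Compared with the NGT group, none of the 40 genes passed an adjusted p of 0.05 with a fold change over 2 in the T1D group, and neither did any gene of the table (0%). DESeq2 also called 0 of the 40. At an unadjusted p under 0.05, 6 of the 40 genes were higher, against 2.36% of all tested genes, and 1 was lower, against 1.6%. The groups did not overlap for 5 higher genes (Timp1, Mmp14, Mmp13, Mmp12 and Adamts5), against 3.52% of all tested genes, although for Mmp12 3 counts in T1D mouse 3 met 2, 0 and 1 in the NGT mice, which these counts cannot tell apart. They also did not overlap for 2 lower genes (Mmp28 and Adamts3), against 5.08%. On deposited FPKM the groups overlapped for Mmp14, Adamts5, Mmp28 and Adamts3, so that these counts depend on the scaling. The share of all genes was not counted on that scale. The log2 fold change was above 0 for 28 of the 40 genes, with a median of 0.35, and the median over all tested genes was 0.02. Without T1D mouse 1 it was above 0 for 20 of the 39 genes then tested, with a median of 0.0083, beside a median of -0.0088 over all genes. The number with an unadjusted p under 0.05 moved with single libraries, as did that of all genes. It was 7 of the 40 and 552 of all 13960 genes with every library. Without T1D mouse 1 it was 1 of the members and 413 of all genes, and without NGT mouse 2 it was 2 and 224. Without NGT mouse 3 it was 4 and 252, and without Lira mouse 3 it was 4 and 599. With the replicate numbers as pairs in a fit of the NGT and T1D groups alone it was 12 of the members, and it rose over the whole table too, to 1931 of 13625 genes.

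The fitted log2 fold change of Mmp13 was 3.21 ± 1.39 (SE, 3 mice against 3, unadjusted p = 0.0483 and adjusted p = 0.977 by edgeR's quasi-likelihood test). Without T1D mouse 1 it was 2.44, without NGT mouse 2, whose Mmp13 count was 0, it was 2.63, and without NGT mouse 1 it was 4.19. With the replicate numbers as a block over all 9 libraries it was 4.03 (unadjusted p = 0.00254 by edgeR). That block was chosen from the same data and also covers the Lira mice, whose numbers were not taken as pairs. Its p-values are therefore given as a description only. The other collagenase, Mmp8, had a log2 fold change of 0.03 ± 1.63, near 0 with an error wide enough to hold large differences in either direction, and limma-voom with sample weights gave 2.69 for it and 5.77 for Mmp13. Mmp9 had 1.47 ± 1.29, and 2.37 (unadjusted p = 0.0312 by edgeR) with that block. It ran from 0.90 without NGT mouse 2 to 2.89 without NGT mouse 1, and limma-voom gave 3.34. For Mmp14 the value was 1.53 ± 0.51 (unadjusted p = 0.0160 and adjusted p = 0.977 by edgeR's quasi-likelihood test), and it was 0.65 without T1D mouse 1.

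Mmp2, gelatinase A of stromal cells, stood at 84.1, 37.2 and 55.8 CPM in the NGT mice, 250.3, 53.0 and 45.1 CPM in the T1D mice and 33.4, 57.2 and 45.5 CPM in the Lira mice. T1D mouse 1 was the only library of its group above the range of the NGT mice, and the log2 fold change of 0.98 ± 0.64 turned to -0.27 without it. The macrophage, fibroblast and osteoblast markers were highest in the same library, and their part in the Mmp2 value was not tested.

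Of the stromelysins and the macrophage elastase, Mmp3 (stromelysin 1) showed 1 mouse set far apart. It was measured at 1.84, 0.696 and 1.35 CPM in the NGT mice, 69.1, 1.77 and 0.800 CPM in the T1D mice and 1.14, 2.65 and 0.689 CPM in the Lira mice. T1D mouse 1 was 26.1 times the next library, while the other two T1D mice lay among the NGT values. The log2 fold change of 4.19 ± 1.54 (unadjusted p = 0.0245 and adjusted p = 0.977 by edgeR's quasi-likelihood test) became -0.017 without that library. Mmp12, the macrophage elastase, was counted 67 times in the T1D libraries together (25, 39 and 3) and 3 times in the NGT libraries. The ratio of the pooled rates was 19.0 (exact 95% interval 6.22 to 94.3), which covers counting error only and not the spread between mice. The fit over mice gave Mmp12 a log2 fold change of 4.11 ± 1.52 (unadjusted p = 0.0250 and adjusted p = 0.977 by edgeR's quasi-likelihood test). Its T1D values were 1.36, 2.55 and 0.200 CPM, so that T1D mouse 2 rather than T1D mouse 1 was highest, and its highest NGT value was 0.127 CPM. Mmp11 (stromelysin 3) had a log2 fold change of 0.72 ± 0.39.

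The membrane-type enzymes beside Mmp14 did not share its pattern. Mmp15 was lowest in Lira mouse 1 and T1D mouse 1 (15.3 and 17.9 CPM) and had a log2 fold change of -0.43 ± 0.34. Mmp24 ran from 8.27 to 12.4 CPM with a log2 fold change of 0.032 ± 0.21. Mmp16, named here after its values were seen, was the exception: at 1.02, 0.232 and 0.554 CPM in the NGT mice and 3.10, 0.917 and 1.20 CPM in the T1D mice, its log2 fold change was 1.51 ± 0.64 (unadjusted p = 0.0439 and adjusted p = 0.977 by edgeR's quasi-likelihood test), with 1 NGT mouse above 1 T1D mouse. It was 0.79 without T1D mouse 1 and 2.13 without NGT mouse 1.

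Among the other MMPs, Mmp28 (epilysin) was the only gene of the 40 that was lower at an unadjusted p under 0.05. It stood at 9.77, 6.11 and 4.75 CPM in the NGT mice, 3.86, 4.12 and 4.27 CPM in the T1D mice and 3.35, 4.67 and 4.19 CPM in the Lira mice. In CPM all NGT values lay above all T1D values, but on deposited FPKM T1D mouse 1 (1.37) lay above NGT mouse 3 (1.19). The log2 fold change was -0.75 ± 0.31 (unadjusted p = 0.0417 and adjusted p = 0.977 by edgeR's quasi-likelihood test), so its size was less than 2-fold. Without NGT mouse 1, the highest library, it was -0.41 (unadjusted p = 0.210 by edgeR). Mmp19 reached 28.1 CPM in T1D mouse 1 and stayed between 1.98 and 6.03 CPM elsewhere, and without that library its log2 fold change was 0.0083. Mmp23 had a log2 fold change of 0.90 ± 0.62, also with its highest value, 5.60 CPM, in T1D mouse 1. T1D mice 2 and 3 (1.70 and 2.33 CPM) lay within its NGT range of 1.01 to 2.73 CPM.

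None of the 15 tested ADAMTS proteases had an unadjusted p under 0.05. The aggrecan- and versican-cleaving members had a median log2 fold change of 0.37, with 5 of 7 above 0. Adamts1 was 0.50 ± 0.33. Adamts5, an aggrecanase of cartilage, was 21.7, 20.7 and 19.9 CPM in the NGT mice and 29.6, 26.0 and 24.9 CPM in the T1D mice. The groups did not overlap in CPM, but on deposited FPKM NGT mouse 1 (3.18) lay above T1D mice 2 and 3 (3.15 and 2.74). The log2 fold change was only 0.37 ± 0.24 (unadjusted p = 0.157 by edgeR). Adamts8 was lower in all T1D mice than in NGT mice 1 and 2, whereas T1D mouse 1 lay above NGT mouse 3 (17.3, 12.4 and 3.17 against 8.05, 2.03 and 3.07 CPM), with -1.32 ± 0.76, or -2.10 without T1D mouse 1 and -0.82 without NGT mouse 1.

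Among the procollagen N-proteinases, which trim fibrillar procollagens, Adamts2 (0.50 ± 0.39) and Adamts14 (0.85 ± 0.60) were highest in T1D mouse 1, at 39.1 and 4.73 CPM. Without that library their log2 fold changes were -0.077 and 0.20. Adamts3 was 4.12, 1.93 and 2.53 CPM in the NGT mice and 1.90, 0.982 and 1.87 CPM in the T1D mice, with a log2 fold change of -0.85 ± 0.58. These values did not overlap, but on deposited FPKM T1D mouse 1 (0.31) lay above NGT mice 2 and 3 (0.22 and 0.29). Of the remaining proteases, Adamts10 had 0.40 ± 0.29, Adamts13, which cuts von Willebrand factor, 0.40 ± 0.47 and Adamts6 -0.15 ± 0.34. The ADAMTS-like proteins, which lack the protease domain, stayed between -0.31 (Adamtsl2) and 0.21 (Adamtsl1), with 0.022 ± 0.39 for Adamtsl5, -0.14 ± 0.22 for Adamtsl4 and 0.17 ± 0.38 for Adamtsl3.

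Among the inhibitors, Timp1 had the lowest unadjusted p of the 40 genes. It was measured at 2.16, 0.464 and 1.03 CPM in the NGT mice, 44.5, 5.57 and 3.80 CPM in the T1D mice and 1.64, 0.545 and 4.71 CPM in the Lira mice. All T1D values lay above all NGT values, and T1D mouse 1 was 8.00 times the next library. The log2 fold change was 3.86 ± 1.17 (unadjusted p = 0.01000 and adjusted p = 0.977 by edgeR's quasi-likelihood test), and 1.92 (unadjusted p = 0.0621 by edgeR) without T1D mouse 1. Timp2 was also highest in that library, at 437 CPM against 124 to 238 CPM elsewhere, with a log2 fold change of 0.62 ± 0.38 that became 0.079 without it. Timp3 and Timp4 were lowest there (131 and 15.2 CPM), with log2 fold changes of -0.22 ± 0.23 and -0.48 ± 0.32, and of -0.027 and -0.22 without it.

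**Figure D3:**
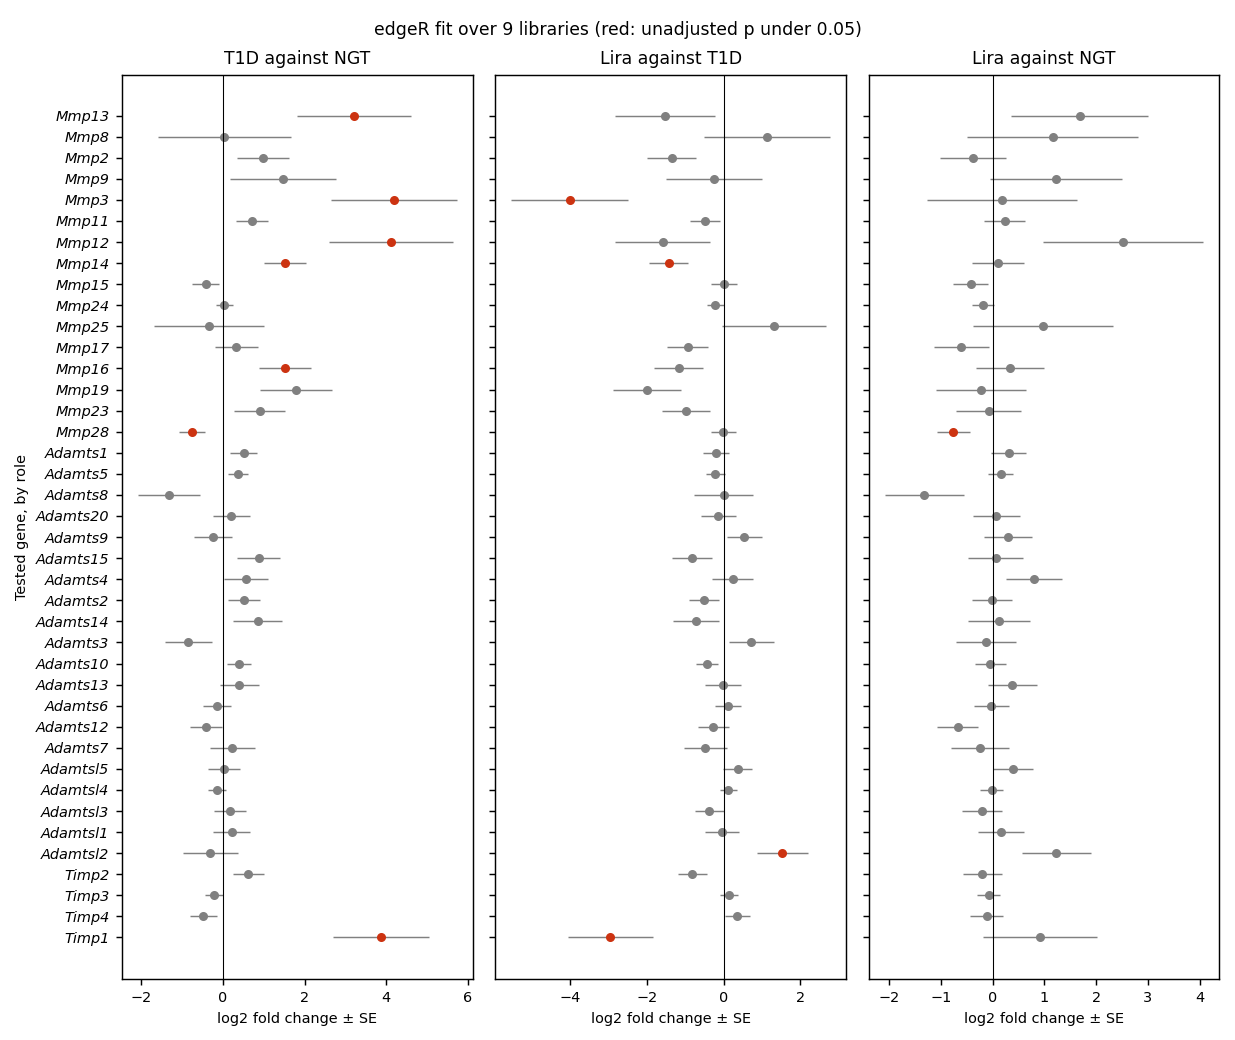
Points are log2 fold changes from edgeR for the 40 tested genes in the 3 comparisons, bars are ± SE, and red marks an unadjusted p under 0.05. Mmp3, Mmp12, Timp1 and Mmp13 lie farthest to the right in T1D against NGT, with wide errors, and most ADAMTS and ADAMTS-like genes lie near 0 in all comparisons.

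In the Lira group compared with the T1D group, whose 3 mice also entered the comparison above, 0 of the 40 genes and 0% of all genes passed the test. DESeq2 called 0 of the 40 and 1 gene of all it tested. At an unadjusted p under 0.05, 3 genes were lower, against 1.78% of all tested genes, and 1 was higher, against 1.55%. The groups did not overlap for 2 lower genes, Mmp14 and Mmp16, against 3.4% of all tested genes, and for 0 higher genes, against 3.74%. On deposited FPKM the groups overlapped for Mmp16, with 0.15 in Lira mouse 3 and 0.14 in T1D mouse 2, but not for Mmp14. The log2 fold change was below 0 for 28 of the 40 genes, with a median of -0.23 beside 0.04 over all tested genes. Without T1D mouse 1 it was below 0 for 24 of 39, with a median of -0.11. With every library 4 of the 40 and 465 of all genes had an unadjusted p under 0.05. The members numbered 0 without T1D mouse 1 (325 of all genes), 0 without Lira mouse 1 (254), 1 without Lira mouse 2 (434) and 7 without T1D mouse 2 (561).

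The 3 lower genes were Mmp14 (-1.43 ± 0.51, unadjusted p = 0.0215 and adjusted p = 0.978 by edgeR's quasi-likelihood test), Timp1 and Mmp3. Timp1 had a log2 fold change of -2.95 ± 1.12 (unadjusted p = 0.0278 and adjusted p = 0.978 by edgeR's quasi-likelihood test), and Lira mouse 3 (4.71 CPM) lay between T1D mice 2 and 3. Mmp3 had -4.01 ± 1.52 (unadjusted p = 0.0283 and adjusted p = 0.978 by edgeR's quasi-likelihood test). Without T1D mouse 1 these values were -0.55 for Mmp14, -1.01 for Timp1 and 0.21 for Mmp3, the last with the opposite sign. The gene with the higher value was Adamtsl2, which encodes a microfibril-associated protein. It stood at 0.707, 1.24 and 0.6002 CPM in the T1D mice and 2.64, 4.13 and 0.689 CPM in the Lira mice, where Lira mice 1 and 2 were above and Lira mouse 3 within the T1D range (1.53 ± 0.67, unadjusted p = 0.0493 and adjusted p = 0.978 by edgeR's quasi-likelihood test). The log2 fold change was 0.96 without Lira mouse 2 and 1.98 without Lira mouse 3.

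For the enzymes set beside Mmp8, the log2 fold change in Lira against T1D was -1.52 ± 1.30 for Mmp13 and -0.25 ± 1.26 for Mmp9, while Mmp8 itself had 1.13 ± 1.65. The value of Mmp13 was -0.75 without T1D mouse 1. That of Mmp8 turned to -0.68 without Lira mouse 3, the library with the most neutrophil transcripts. Mmp2 had -1.36 ± 0.64 and Mmp19 -2.005 ± 0.89, and in both the T1D group was led by T1D mouse 1, without which they had -0.11 and -0.23. The remaining inhibitors had -0.82 ± 0.38 (Timp2, -0.28 without T1D mouse 1), 0.14 ± 0.23 (Timp3) and 0.36 ± 0.32 (Timp4). Among the ADAMTS proteases the values ran from -0.82 to 0.72, and none had an unadjusted p under 0.05.

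In the Lira group compared with the NGT group, 0% of all genes passed the test, the 40 among them, and DESeq2 called 0 of the 40. Only Mmp28 had an unadjusted p under 0.05 (lower, against 0.294% of all tested genes), and 0 genes were higher, against 0.487%. Mmp28 was also the only one without overlap on the lower side, against 1.78%, and 0 genes were without overlap on the higher side, against 2.49%. On deposited FPKM Mmp28 did overlap, with 1.21 and 1.33 in Lira mice 2 and 3 against 1.19 in NGT mouse 3. Its Lira values were 3.35, 4.67 and 4.19 CPM, with a log2 fold change of -0.76 ± 0.32 (unadjusted p = 0.0411 and adjusted p = 0.999 by edgeR's quasi-likelihood test), and -0.41 without NGT mouse 1 (unadjusted p = 0.205 by edgeR). The median log2 fold change was 0.06 over the 40 genes and 0.04 over all. The Lira values of Mmp14 lay within the NGT range, with 0.1 ± 0.50. Mmp13 had 1.68 ± 1.32, Mmp8 1.16 ± 1.65 and Mmp9 1.22 ± 1.28, each with an SE above 1. With 1 mouse left out, Mmp9 ran from 0.084 (without Lira mouse 3) to 2.64 (without NGT mouse 1). Mmp13 ran from 1.10 (without NGT mouse 2) to 2.67 (without NGT mouse 1).

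Setting each enzyme beside Mmp8 within the same library gave a ratio in which the scaling of the library largely cancels, and only its change between mice is read here, since it is not per length. The log2 ratio of Mmp13 to Mmp8 was -1.30, 0.00 and -0.24 in the NGT mice. It was 2.41, 4.11 and 1.29 in the T1D mice and 0.98, -0.073 and -1.19 in the Lira mice. The T1D mice lay above all other mice. In NGT mouse 2 both counts were 0 and the pseudocount of 0.5 sets the ratio. The difference was 3.12 for T1D against NGT and -2.70 for Lira against T1D, each at an exact two-sided permutation p of 0.1, the smallest that 3 mice against 3 allow, and 0.225 after Benjamini-Hochberg adjustment over the 9 tests. Taken within replicate numbers, the exact permutation p of the T1D against NGT difference was 0.25 for Mmp13 and also for Mmp9, the smallest that 3 pairs allow. Without NGT mouse 2 the former was 3.38, and without T1D mouse 1 the values were 3.22 and -2.80.

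The log2 ratio of Mmp9 to Mmp8 was 0.12, 1.06 and 0.52 in the NGT mice, 1.57, 3.62 and 1.41 in the T1D mice and 0.95, 0.87 and 0.064 in the Lira mice. NGT mouse 2 had 7 counts of Mmp9 and 0 of Mmp8, so its 1.06 is set by the pseudocount and its true ratio may be higher than that of some T1D mice. All T1D mice lay above the other 5 mice. The differences were 1.64 for T1D against NGT and -1.57 for Lira against T1D, each with an exact permutation p of 0.1 (0.225 adjusted). The former p rests on the value the pseudocount gives NGT mouse 2, without which the difference was 1.88. T1D mouse 2 gave the highest ratio of both enzymes, since its Mmp8 was 1.77 CPM beside 27.4 CPM of Mmp9 and 38.7 CPM of Mmp13. Without that mouse the T1D against NGT differences were 0.93 for Mmp9 and 2.37 for Mmp13, and the Lira against T1D differences -0.86 and -1.95. Mmp14 did not separate the groups in this way: its log2 ratio to Mmp8 was lowest in Lira mouse 3 (-2.09) and highest in NGT mouse 2, where the pseudocount in place of 0 counts of Mmp8 gave 5.05. The T1D against NGT difference was 0.38 (exact permutation p = 0.900), and 2.03 without NGT mouse 2. Between Lira and NGT mice the ratios overlapped for all 3 enzymes, with differences of 0.061 for Mmp9, 0.42 for Mmp13 and -1.59 for Mmp14.

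**Figure D4:**
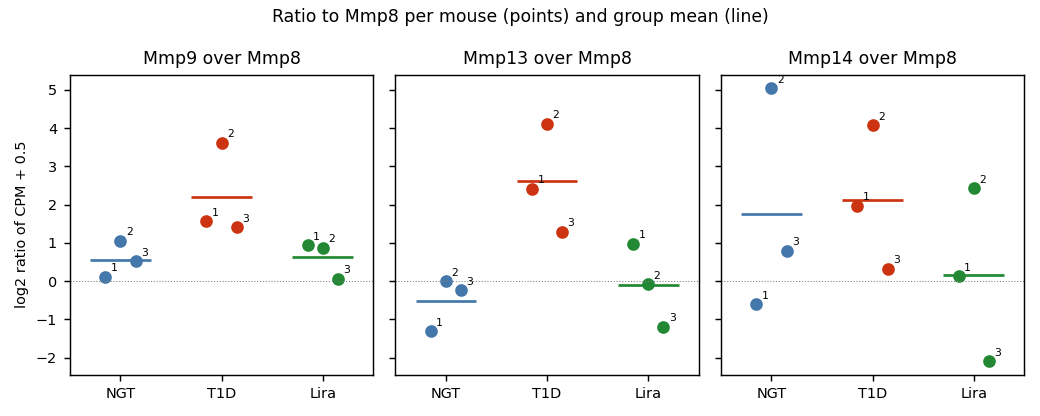
Points are the log2 ratio of CPM + 0.5 of Mmp9, Mmp13 or Mmp14 to that of Mmp8 in each mouse, numbered by mouse, and lines are group means. At this pseudocount, which places NGT mouse 2 (0 counts of Mmp8), the T1D points lie above all NGT and Lira points for Mmp9 and Mmp13 but not for Mmp14.

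Across the 9 mice, regardless of group, the correlation of Mmp8 with the mean log2 level of the neutrophil markers was r = 0.995 (rho = 0.983, exact permutation p after adjustment over 20 correlations = 8.27e-05 and 4.96e-04), and r was 0.997 without the 2 libraries farthest from the median and 0.996 for deviations from group means. Mmp8 also correlated with the osteoclast markers (r = 0.865, adjusted exact permutation p = 0.00668) and the osteoblast markers (r = 0.781, 0.0302 by the same test), at 0.961 and 0.867 within groups. Without the 2 farthest libraries these were 0.736 and 0.633, and with the osteoblast markers rho was 0.75 (adjusted exact permutation p = 0.0566). In the 8 libraries other than NGT mouse 2, the CPM of Mmp8 equalled 2.01% to 3.25% of the summed CPM of the neutrophil list, which does not hold it, while that sum ran from 63.1 to 5918 CPM. The genes most like Mmp8 among 10412 were Ngp, Ltf, S100a8, S100a9 and Retnlg (r of 0.999 to 0.995 over 9 libraries), all on the neutrophil list. Within the families, Mmp25, a membrane-anchored enzyme of leukocytes named here after its values were seen, was nearest to Mmp8 (r = 0.949).

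Mmp9 correlated with the osteoclast markers at r = 0.938 (rho = 0.983, adjusted exact permutation p = 8.27e-05 and 4.96e-04) and with the neutrophil markers at r = 0.901 (rho = 0.883, 0.00386 and 0.0154 by the same test). Without the 2 farthest libraries r was 0.978 and 0.917, and within groups 0.933 and 0.97. With the muscle genes r was -0.596 (adjusted exact permutation p = 0.109), while rho was -0.8 (0.0346 by the same test). The CPM of Mmp9 equalled 43.5% of the summed CPM of the neutrophil list in T1D mouse 2 and 2.19% to 7.13% in the other 8 libraries. The genes most like it were Pctp, Ccr1, Nckap1l, Itgam and Mmp13 (r of 0.983 to 0.955). Of these, Itgam and Nckap1l are genes of myeloid cells and Ccr1 is a chemokine receptor.

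Mmp13 correlated with the osteoclast markers at r = 0.904 (rho = 0.933, adjusted exact permutation p = 0.00169 and 0.00500), with r of 0.776 without the 2 farthest libraries and 0.893 within groups. With the osteoblast markers r was 0.888 (adjusted exact permutation p = 0.00668), but rho was 0.583 (0.120 by the same test) and r fell to 0.583 without NGT mouse 2 and T1D mouse 1, so that this relation rested on those libraries, although r was 0.946 within groups. With the neutrophil markers r was 0.753 (adjusted exact permutation p = 0.0302) and rho 0.65 (0.0832 by the same test). Its nearest genes were Ctsk, the collagen-degrading protease of osteoclasts, Ibsp and Spp1, both bone matrix proteins, then Pctp and Mmp9 (r of 0.970 to 0.955). Ctsk was 30.4, 2.78 and 12.0 CPM in the NGT mice, 117, 32.7 and 72.9 CPM in the T1D mice and 34.0, 5.06 and 47.5 CPM in the Lira mice, an order of mice close to that of Mmp13. Ctsk itself had a log2 fold change of 2.30 ± 0.96 in T1D against NGT and -1.36 ± 0.93 in Lira against T1D.

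For Mmp14, r with the osteoclast markers was 0.691 (rho = 0.817, adjusted exact permutation p = 0.0375 and 0.0308), and 0.562 without the 2 farthest libraries. With the neutrophil markers r was 0.433 (adjusted exact permutation p = 0.248). With the osteoblast markers r was 0.791 and with the muscle genes -0.8 (adjusted exact permutation p = 0.0302 for both). Without NGT mouse 2 and T1D mouse 1, the 2 libraries farthest on the osteoblast list, the former became 0.275. Without NGT mouse 1 and T1D mouse 1, the 2 farthest on the muscle list, the latter became -0.315. By rank, rho was 0.617 and -0.833 (0.101 and 0.0276 by the same test), and within groups r was 0.786 and -0.875. The osteoblast relation thus rested on those libraries, while the muscle relation weakened without them but also passed by rho. Its nearest genes were Mydgf, Cd302, Fkbp10, Itm2c and C1qb (r of 0.974 to 0.963), each highest in T1D mouse 1, and within the families Mmp16 (0.985), Timp1 (0.943), Mmp19 (0.931) and Timp2 (0.916). Of the 20 correlations with lists, 12 had an adjusted p under 0.05 by r and 8 by rho, and none of the 4 with the osteoblast list passed by rho. The libraries share tissue makeup and depth, so that lists which rise together in the same mouse are not independent.

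**Figure D5:**
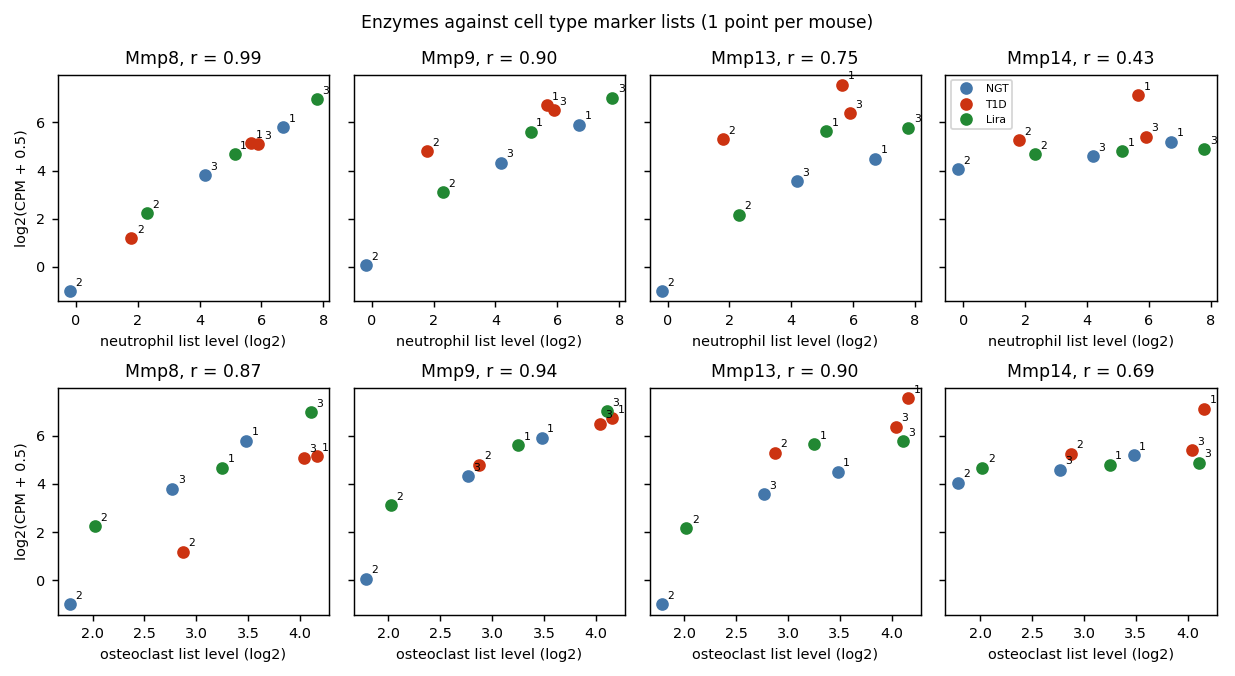
Each point is 1 mouse, with the level of the neutrophil list (upper row) or osteoclast list (lower row) as mean log2(CPM + 0.5) on the x axis and log2(CPM + 0.5) of the enzyme on the y axis. Mmp8 lies on a line with the neutrophil list (r = 0.995), Mmp9 and Mmp13 rise with the osteoclast list (r = 0.938 and 0.904), and Mmp14 is highest in T1D mouse 1 (139 CPM) and between 16.01 and 41.9 CPM elsewhere.

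Activators, receptors and other inhibitors of these enzymes were read from a list of 25 genes, of which 18 were tested. In T1D against NGT 17 of the 18 had a log2 fold change above 0, with a median of 0.24, and 0 had an unadjusted p under 0.05. It was 10 of the 18 without T1D mouse 1, with a median of 0.12. In Lira against T1D 13 of the 18 were below 0, with a median of -0.25, and again 0 had an unadjusted p under 0.05. With T1D mouse 1 left out it was 7 of the 18, and the median was 0.12. The most abundant were Bsg, an inducer of MMPs, at 0.27 ± 0.33 and -0.26 ± 0.33, Serpine2, a serine protease inhibitor, at 0.10 ± 0.14 and -0.06 ± 0.14, and Lrp1, the endocytic receptor that clears several MMPs and TIMPs, at 0.73 ± 0.49 and -0.58 ± 0.49. Lrp1 turned to -0.069 and 0.22 without T1D mouse 1, and Bsg to -0.096 and 0.107 without T1D mouse 2.

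Of 18 genes listed as matrix substrates, with the processing enzyme Bmp1 among them, all were tested and 12 had a log2 fold change above 0 in T1D against NGT, with a median of 0.27, and 12 were below 0 in Lira against T1D, with a median of -0.41. Both directions turned without T1D mouse 1, when 4 of the 17 substrates then tested were above 0 in T1D against NGT (median -0.33), and 7 were below 0 in Lira against T1D (median 0.093). In T1D against NGT 9 of the 18 were above 0 without NGT mouse 3 (median 0.0017), and 10 without NGT mouse 2 (median 0.067). Bmp1, the procollagen C-proteinase and thus no substrate, named after its values were seen, was the only one with an unadjusted p under 0.05, in both comparisons (0.80 ± 0.32 and -0.91 ± 0.32, or 0.35 and -0.47 without T1D mouse 1), and 0 passed adjustment. The most abundant were fibronectin (Fn1, 1.66 ± 1.08 and -1.49 ± 1.08), type III collagen (Col3a1, 1.47 ± 0.94 and -2.17 ± 0.96) and biglycan (Bgn, 1.41 ± 0.73 and -1.51 ± 0.73). Fn1 stood at 1627, 215 and 105 CPM in the T1D mice and 451, 84.8 and 81.9 CPM in the NGT mice, so that T1D mouse 1 was again far above the rest. Without it the T1D against NGT value was -0.36 for Fn1, -0.68 for Col3a1 and 0.015 for Bgn, and the Lira against T1D value 0.53, -0.021 and -0.12. The perlecan gene Hspg2 and the type IV collagen gene Col4a1, both of basement membranes and named after their values were seen, had -0.37 ± 0.29 and -0.53 ± 0.33 in T1D against NGT.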

How the data were processed

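The sequenced tibiae had been cleaned of muscle and connective tissue, frozen and extracted with TRIzol. Per the methods of the study, mRNA was enriched with oligo(dT) and sequenced, and clean reads were aligned to the mouse genome. The submitters' processing notes name the build mm9; the strand setting of the counting is not given in the sources used here. The authors deposited expected counts per gene, estimated from these alignments and not normalized, of which 30.2% are not whole, and FPKM values, in which the authors corrected counts for the length of the gene and the size of the library. The table's columns of group means were not used. The 9 sample columns were matched to their mice by the labels, and 0 sample columns were left over. No statement on separate litters or cages was found, so p-values measure the spread between these mice. The replicate samples were 3 of the 8 mice first assigned to each group of the study, which lists fewer T1D mice in its later measurements.

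Expected counts were rounded, and genes were kept if 3 or more libraries held 10 or more counts (13960 of 18272). Totals of 13086373 to 16528394 counts put 3 counts, taken as the upper limit behind a 0, at 0.163 to 0.237 CPM. Intervals and limits cover counting error only. CPM used TMM-scaled totals, and log values are log2(CPM + 0.5). Levels were compared between genes by FPKM only. All 9 libraries entered 1 fit of 3 group means in edgeR 4.0.16 (glmQLFit and glmQLFTest, R 4.3.3, two-sided), with Benjamini-Hochberg adjustment over all tested genes and the study's thresholds, an adjusted p under 0.05 and a fold change over 2. SEs were derived from the F statistic. Ratios to Mmp8 and correlations with marker lists were tested by exact permutation over mice. A list's level is the mean of log2(CPM + 0.5) over its tested genes, and no member gene is in a list. DESeq2 1.42.0, limma 3.58.1 and the alternatives named at the end were also run, and the fit was tested on simulated data. Figures were drawn with matplotlib 3.10.9.

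Same-numbered NGT and T1D mice, as deviations from group means over genes, correlated at r = 0.583, 0.647 and 0.283. All exceed 0.1, so these numbers were taken as pairs in an alternative fit, a choice made from the same expression values. For Lira and T1D (-0.244, 0.615 and 0.271) and Lira and NGT (-0.173, 0.727 and 0.0125) they were not. The study describes no pairing, so the block stayed an alternative.

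Named genes were Mmp8, Mmp9, Mmp13, Mmp14 and the 4 TIMPs, up to 3 genes per role by mean FPKM, up to 5 per comparison by the lowest unadjusted p if under 0.05, the untested genes, the 5 genes most like each of the 4 enzymes among those with a mean of at least 5 CPM, and at most the 3 most abundant of each list. The members and lists were chosen with earlier results of these data known. Beside the lists named in the results, marker lists of osteocytes, chondrocytes, erythroid, endothelial and B cells and adipocytes were summed per library. Their summed CPM ran over 7.04 to 39.1, 21.8 to 305, 392 to 29195, 295 to 508, 17.2 to 234 and 983 to 2851. Promoter windows came from RefSeq (GRCm38.p6), which is not the build of the counts, and were used for sequence alone.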

Additional observations from a re-analysis of the deposited data

How the results depend on the processing

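The count of 0 called genes among the 40 held in all 3 comparisons under DESeq2, library size in place of TMM, TMM without the muscle genes, no filter on low counts, a filter of 10 counts in every mouse of 1 group, separate fits of each pair of groups, the replicate block (with all 9 libraries and with 2 groups), edgeR with its robust option, limma-voom with sample weights and leaving out each mouse. The number with an unadjusted p under 0.05 moved with these choices: in T1D against NGT it was 7, ran from 4 to 12 under the other methods, with 12 for the replicate block in a fit of 2 groups, and from 1 to 7 when 1 mouse was left out, and in Lira against T1D it was 4 in the fit of all libraries, 2 with that block, 1 to 5 over the other methods and 0 to 7 when 1 mouse was left out. In Lira against NGT it was 1, ran from 0 to 4 over the other methods and from 0 to 2 when 1 mouse was left out. The NGT and T1D numbers were treated as pairs only because of the correlations given with the processing, as the study describes no pairing. The block changed no call. Turns of sign with the method were read only for Mmp8, Mmp9, Mmp13, Mmp14, the 4 TIMPs and the genes named by their unadjusted p. Among these, Mmp8 in T1D against NGT was -0.047 with library size in place of TMM, and Timp3 in Lira against NGT was 0.068 with limma-voom. In the main setting r with the chondrocyte list was 0.694 for Mmp13 and 0.684 for Mmp14 (adjusted exact permutation p = 0.0514 for both). The same correlations passed an adjusted p of 0.05 under other scalings. There r was 0.703 for Mmp13 and 0.695 for Mmp14 at a pseudocount of 1, 0.736 and 0.791 on deposited FPKM, and 0.727 and 0.758 with library size. The cause was not tested.

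Leaving out 1 mouse at a time turned the sign of 15 of the 40 genes in T1D against NGT, 18 in Lira against T1D and 27 in Lira against NGT. The ranges follow for those among Mmp8, Mmp9, Mmp13, Mmp14, the 4 TIMPs and the genes named by their unadjusted p. In T1D against NGT they were -0.55 to 1.80 for Mmp8 and -0.017 to 4.76 for Mmp3. In Lira against T1D they were -0.68 to 1.67 for Mmp8, -1.39 to 0.27 for Mmp9, -0.053 to 0.28 for Timp3 and -4.71 to 0.21 for Mmp3. In Lira against NGT they were -0.65 to 2.93 for Mmp8, -0.14 to 0.45 for Mmp14, -0.17 to 1.63 for Timp1, -0.39 to 0.091 for Timp2, -0.23 to 0.038 for Timp3 and -0.34 to 0.032 for Timp4. The log2 ratio to Mmp8 turned sign in Lira against NGT for Mmp9 (-0.16 to 0.34), Mmp13 (-0.12 to 0.96) and Mmp14 (-2.76 to 0.066), and in T1D against NGT for Mmp14 (-0.80 to 2.03). In the comparisons with the T1D group it kept its sign for Mmp9 and Mmp13 whichever mouse was left out.

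Correlations crossed an adjusted p of 0.05 when 1 mouse was left out as follows. For Mmp8, r ran over 0.787 to 0.893 with the osteoclast and 0.552 to 0.851 with the osteoblast list. For Mmp9 it ran over 0.737 to 0.917 with the osteoblast and 0.477 to 0.761 with the chondrocyte list. For Mmp13 it ran over 0.501 to 0.868 with the neutrophil, 0.751 to 0.926 with the osteoblast and 0.588 to 0.854 with the chondrocyte list. For Mmp14 it ran over 0.584 to 0.802 with the osteoclast, 0.711 to 0.846 with the osteoblast, 0.333 to 0.881 with the chondrocyte and -0.875 to -0.430 with the muscle list. The relations of Mmp8 with neutrophil markers, of Mmp9 with neutrophil and osteoclast markers and of Mmp13 with osteoclast markers stayed past the threshold each time. The biological coefficient of variation was 0.433 with 3 mice a group, and genes of few counts such as Mmp12 also carry a large counting error.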

Other observations

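The tested genes that the naming rule left out are given here by their values, as chosen after these were seen. Adamts15, a proteoglycan-cleaving enzyme, was 14.1 CPM in T1D mouse 1 and between 2.70 and 6.39 CPM in the other libraries. Adamts9 was highest in Lira mouse 1 (19.7 CPM), as was Adamts4 (2.07 CPM), and both groups of diabetic mice overlapped with the NGT mice. Adamts20 ran from 3.64 CPM in Lira mouse 1 to 13.0 CPM in T1D mouse 2. Adamts12 and Adamts7 stayed under 5 CPM in all libraries, and Adamts12 had log2 fold changes of -0.41 ± 0.40 in T1D against NGT and -0.68 ± 0.40 in Lira against NGT. Mmp17, a membrane-type enzyme held by a lipid anchor, was 1.33, 1.31 and 0.950 CPM in the NGT mice, 1.03, 1.77 and 1.73 CPM in the T1D mice and 0.285, 0.857 and 1.21 CPM in the Lira mice. Mmp25 was 5.84, 0.0773 and 1.74 CPM in the NGT mice, 3.97, 0.327 and 1.73 CPM in the T1D mice and 3.64, 0.467 and 10.9 CPM in the Lira mice, so that each group again had its lowest value in mouse 2, as for Mmp8.

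In the same libraries Timp4, Timp3 and Mmp15 ran against Mmp14. Over the 9 libraries their correlations with Mmp14 on the log2 scale were -0.834, -0.726 and -0.559, given as a description. All 3 were low in T1D mouse 1, where the muscle genes summed to 102116 CPM, the lowest of the 9 libraries. The part of muscle in these values was not tested.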
